A study of Mus musculus with 6 samples.

Results

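Zinc finger protein genes were taken as all genes whose symbol is Zfp followed by a number. Among 18624 complete rows in 3 tables of hnRNP UL1 chromatin immunoprecipitation peaks, 113 rows named such a gene as the nearest one, and these rows named 68 genes. Only Zfp36l2 among the 68 belongs to the Zfp36 family of mRNA-decay proteins, which is described apart, so 67 genes remain for what follows. The RefSeq annotation of the mouse build GRCm38.p6 lists 393 protein-coding Zfp genes outside that family, of 21887 protein-coding genes in all.

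The chromatin came from RAW 264.7, a virus-transformed mouse macrophage line, exposed to lipopolysaccharide (LPS, a bacterial cell-wall component) at 100 ng/ml for 4 h or 10 h, or left untreated (0 h). One antibody against the RNA-binding nuclear protein hnRNP UL1 was used at every time, and the labels record no genetic change in any group. The series holds 3 ChIP and 3 input samples, 1 of each per time, and the inputs were not analysed here. A peak is a point 2 bp wide with no height and no read depth, so it is counted as listed or not listed, and with 1 library per time no test between times exists.

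Most Zfp genes encode C2H2 zinc finger proteins, in which repeated finger modules, each held by a zinc ion, read DNA bases. Many also carry a KRAB domain, which recruits the corepressor Trim28 and heterochromatin factors, and such genes have multiplied into tandem clusters as a defence against retroelements. Some carry a SCAN domain, which pairs proteins with each other, and others lack both domains and act as activators, cofactors or RNA-binding proteins. The Zfp36 proteins share only the symbol stem: their CCCH fingers bind AU-rich elements in cytokine mRNAs and trigger decay.

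The 0 h table held 8425 peaks, of which 5671 had a named nearest gene. The tables are ordered by gene ID, and those of 4 h (9046 complete rows) and 10 h (1153) end at lower IDs. The times were therefore compared for IDs below 27620 (0 h and 4 h) or below 22416 (all 3 times). As a look at cell identity, 0 h peaks named 5 of 12 macrophage marker genes, 1 of 8 T and B cell markers, 0 of 4 neuronal markers and 1 of 4 hepatocyte markers. Peaks named 15.6% of all protein-coding genes, the exact intervals of the 4 marker shares (15.2 to 72.3%, 0.316 to 52.7%, 0 to 60.2% and 0.631 to 80.6%, in that order) all include it, and peaks are not expression levels, so these counts do not check the cell type.

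The sequences of promoters that carried a peak in untreated cells are shown first, because they hold the letters that the later comparison of promoters turns on. In 6 members the 0 h point fell inside the RefSeq promoter window, which runs from 250 bases before the start to 50 after it. Each stretch of 100 bases covers the point and runs 5′ to 3′ on the gene's strand. The GRCm38.p6 positions are chr6:47835561-47835660 (plus strand) for Zfp398, chr6:48086595-48086694 (minus) for Zfp746, chr11:58323155-58323254 (minus) for Zfp672, chr8:69625302-69625401 (minus) for Zfp868, chr5:105876318-105876417 (plus) for Zfp326 and chr7:127345465-127345564 (minus) for Zfp768. For contrast, Zfp456 at chr13:67375764-67375863 (minus) had no 0 h peak. It was chosen after its values were seen, as the gene with the median CG count among 19 such genes of the largest cluster. Capitals mark matches on either strand to GGGCGG, the core of a GC box, or to GGG followed, after a gap of 5 bases of any kind, by CC, the outline of NF-κB sites. The patterns may overlap each other.
Zfp398: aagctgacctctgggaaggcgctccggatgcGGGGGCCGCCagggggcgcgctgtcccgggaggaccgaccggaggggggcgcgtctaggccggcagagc
Zfp746: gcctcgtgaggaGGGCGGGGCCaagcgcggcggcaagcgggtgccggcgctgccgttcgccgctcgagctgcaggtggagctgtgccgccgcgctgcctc
Zfp672: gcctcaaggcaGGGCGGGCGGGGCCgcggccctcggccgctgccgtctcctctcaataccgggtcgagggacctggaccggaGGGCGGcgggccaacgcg
Zfp868: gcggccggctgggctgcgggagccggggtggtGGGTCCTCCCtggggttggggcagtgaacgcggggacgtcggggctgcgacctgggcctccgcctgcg
Zfp326: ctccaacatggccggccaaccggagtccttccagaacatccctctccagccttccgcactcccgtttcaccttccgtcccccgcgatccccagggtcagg
Zfp768: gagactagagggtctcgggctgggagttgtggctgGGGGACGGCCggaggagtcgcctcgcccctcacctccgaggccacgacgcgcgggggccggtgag
Zfp456: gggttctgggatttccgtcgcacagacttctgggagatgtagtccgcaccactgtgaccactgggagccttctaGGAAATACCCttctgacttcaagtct

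In these members the point lay 50, 51, 91, 176, 205 and 231 bp upstream of the RefSeq start, in the order listed. Their whole windows of 300 bases held 21, 39, 34, 29, 34 and 35 CG dinucleotides, whereas the window of Zfp456 held 9. Zfp398, Zfp746 (PARIS, a repressor that parkin marks for degradation) and Zfp868 carry a KRAB domain by the tables' gene descriptions. Zfp326 encodes a subunit of the DBIRD complex, which acts on transcript elongation and splicing, and no capital stands in its stretch.

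The first comparison asked how many Zfp genes carried a peak in untreated cells. At least 1 peak named 55 of the 393 Zfp genes, 13.99% (exact Clopper-Pearson 95% interval 10.7 to 17.8%), against 3363 of 21490 other protein-coding genes, 15.6% (15.2 to 16.1%). Over all protein-coding genes the share was 15.6%. A peak within 1 kb of a start, the authors' promoter class, named 32 of the 393 Zfp genes, 8.14%, against 7.92% of the other genes and 7.93% of all. Both Zfp shares lay within counting error of the other genes. Intervals here and below cover counting error only and treat neighbouring peaks as independent.

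Gene length moved with this count. The Zfp genes with a peak had a median length of 23.9 kb, against 18.2 kb for all Zfp genes, and other genes with a peak had 37.1 kb, against 17.1 kb for all other genes. Among genes between 12.2 and 29.3 kb, the middle of the Zfp length range, 18 of 197 Zfp genes had a peak, 9.14% (5.51 to 14.1%), against 782 of 5024 other genes, 15.6% (14.6 to 16.6%). In that range the Zfp share was the lower, and the intervals did not overlap.

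In untreated cells most Zfp genes with a peak had 1 peak, as did most other genes. The 55 genes held 72 peaks, a mean of 1.31 per gene with at most 4, and 44 of them (80%) had 1 peak. Other named genes with a peak averaged 1.62, with at most 37, and 71.5% of them had 1 peak. At 4 h, for IDs below 27620, 4 of 15 Zfp genes with a peak had 1, 26.7%, against 44.4% of other genes. At 0 h in that range it was 4 of 6 Zfp genes, 66.7%, against 69.5%. No intervals were computed for these shares, and the differences were not tested.

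The second comparison asked where in a gene the peaks lay. Of the 72 peaks at 0 h, 36 lay within 1 kb of a start, 50% (37.98 to 62.0%), against 34.8% (33.5 to 36.1%) of 5597 peaks at other named genes and 35% of all named peaks. Introns held 15 peaks, 20.8% (12.2 to 32.0%), against 34.7% (33.5 to 36.0%) at other genes. The class covers introns of any gene. The peak at Zfp704 and the intron peak at Zfp143 lay in introns of other gene IDs, and how often this held at other genes was not counted. The flank from 1 to 3 kb held 8 peaks, 11.1% against 11.3%, and distal intergenic sequence held 12, 16.7% against 14.2%. A single peak, at Zfp395, lay in an exon, UTR or gene-end class, 1.39% against 5.003%. The promoter share was thus the higher and the intron share the lower at Zfp genes, and neither pair of intervals overlapped.

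**Figure D1:**
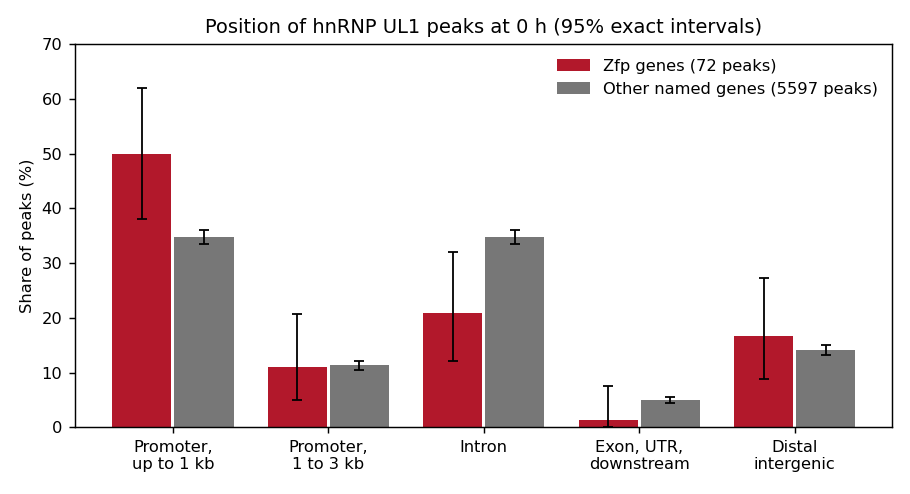
Share of 0 h peaks in each annotated position, in percent, for Zfp genes (red, 72 peaks) and other named genes (grey, 5597 peaks), with exact 95% intervals as bars. Within 1 kb of a start lay 50% of the peaks at Zfp genes and 34.8% at other genes, and introns held 20.8% and 34.7%.

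Counted by gene, the contrast was smaller. A promoter peak was present at 32 of the 55 Zfp genes with any peak, 58.2% (44.1 to 71.3%), against 50.4% of other genes with a peak and 50.6% of all. All genes were also split at 23.9 kb, the median length of the Zfp genes with a peak. Below that length 20 of 35 Zfp peaks were promoter peaks, 57.1% (39.4 to 73.7%), against 48.0% at other genes. Above it the numbers were 16 of 37, 43.2% (27.1 to 60.5%), against 29.9%. The Zfp share was the higher in both classes, but both intervals include the share at other genes. The split does not match lengths within a class.

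The Zfp promoter peaks crowded near the start. Within 200 bp lay 26 of the 72 peaks, 36.1% (25.1 to 48.3%), against 19.6% at other genes, and the median distance of a promoter peak was 127 bp, against 165 bp. Over all 0 h peaks the median distance was 817.5 bp for Zfp genes and 3990 bp for other genes. The points nearest to the start the tables use were at Zfp709 (11 bp upstream), Zfp263 (34 bp upstream), Zfp207 (42 bp upstream) and Zfp768 (43 bp downstream). Of the 36 promoter peaks 13 lay upstream of the start, 36.1%, against 40.7% at other genes. A start of another gene on the opposite strand lay within 1 kb of 3 of them (Zfp553 with Gm4532, Zfp319 with Usb1, Zfp524 with Fiz1), 8.33% (1.75 to 22.5%), against 15.5% of promoter peaks at other genes. No such start was counted at Zfp398, although its point also lies within the span of Zfp786.

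**Figure D2:**
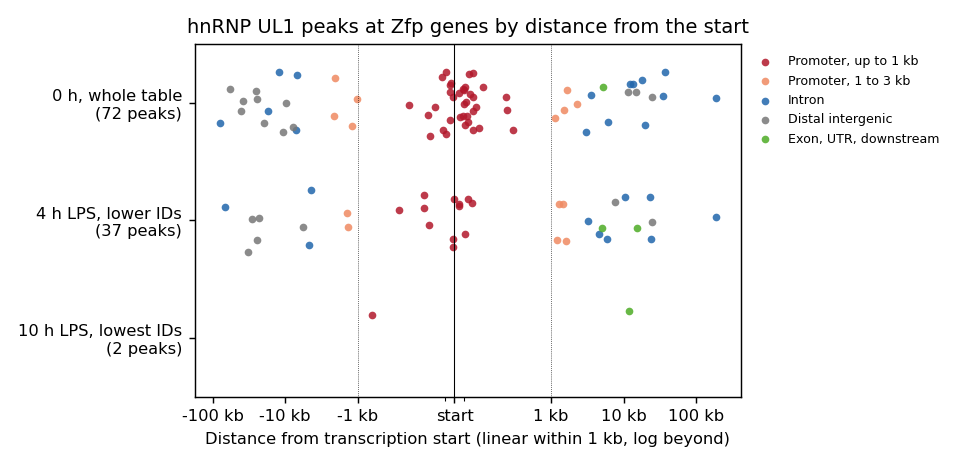
Each point is a peak at a Zfp gene, placed by its distance from the transcription start (bp, linear within 1 kb and logarithmic beyond, upstream to the left) and coloured by annotated position. The rows hold 72 peaks at 0 h (whole table), 37 at 4 h and 2 at 10 h (lower gene IDs alone), and the 0 h promoter peaks gather close to the start.

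By the domains named in the tables' gene descriptions, 53 of the 55 genes carry C2H2 fingers, all but Zfp330 and Zfp957. KRAB genes were 13 of the 55, and their share of all Zfp genes was not counted. Of the 15 peaks at KRAB genes 12 were promoter peaks, 80% (51.9 to 95.7%), against 24 of 57 at the non-KRAB genes, 42.1% (29.1 to 55.9%). Introns held 0 of the 15 (upper bound 21.8%), against 15 of the 57, 26.3% (15.5 to 39.7%). By gene, 10 of 13 KRAB members had a promoter peak, 76.9% (46.2 to 94.96%), against 22 of 42 non-KRAB members, 52.4% (36.4 to 68.0%). Each of these pairs of intervals overlaps. KRAB members with a 0 h peak were at most 37.9 kb long, whereas non-KRAB ones reached 575.3 kb, and lengths were not matched. The KRAB members with a promoter peak were Zfp65, Zfp72, Zfp160, Zfp263, Zfp398, Zfp709, Zfp746, Zfp764, Zfp868 and Zfp930. Those without were Zfp69, Zfp212 and Zfp971. Both distal KRAB peaks lay upstream, 7722 bp from Zfp69 and 9644 bp from Zfp212. A SCAN domain was named for Zfp263, Zfp397 and Zfp24.

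The members with the most peaks at 0 h differed in where these lay. Zfp397 (chr18:23952741-23964671), a SCAN gene, was named by 4 peaks, all in distal intergenic sequence between 10567 and 58554 bp upstream of its start. Zfp24, a SCAN gene of the same cluster, was named by 2 peaks, 19360 and 24881 bp upstream. None of the 0 h peaks of Zfp397 and Zfp24 lay at a promoter, whereas both of Zfp263, the other SCAN member, did. Zfp516 (chr18:82909688-83005314), a transcription factor of brown fat, also had 4, at 92 and 1182 bp upstream and at 1640 and 37120 bp downstream of the starts the table names, the last in intron 1 of 5. In Zfp516 the peaks therefore ran from the promoter into the gene.

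Zfp609 (chr9:65691578-65827564), whose product works with cohesin loader and Integrator subunits, had 3 peaks, 1 of them 547 bp downstream of a start and the others in introns 2 and 3 of 9. Zfp638 (chr6:83867068-83986871), which encodes a nuclear RNA-binding protein, had 3 as well, at 98 and 1513 bp downstream of starts and in intron 20 of 26. A further 7 genes had 2 peaks each. Among these Zfp384, Zfp672, Zfp746 and Zfp263 had both in the promoter class, Zfp143, a promoter-binding activator, had 1 there, and Zfp503, a corepressor gene, had both in distal sequence.

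Chromosome 18 held 13 of the 72 peaks, at 6 of its 11 Zfp genes, among them the 4 peaks of Zfp397 and the 2 of Zfp24. Chromosome 14 held 5 peaks at 4 of 5 genes. Chromosome 7 held 6 peaks at 5 of 92 genes and chromosome 17 held 1 peak, at 1 of 45 genes (Zfp160). The share over all genes of each chromosome was not counted, so these numbers set no chromosome apart. The names in the rows do not catch every point: 12 further 0 h points lay inside 8 Zfp genes but were given to a gene outside the family. Among these were 4 in Zfp469 and 2 in Zfp704. The point in the Zfp398 promoter shown above, which is counted at Zfp398, also falls within the span of its neighbour Zfp786.

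The third comparison followed the tandem clusters. Runs of at least 3 Zfp genes with gaps of at most 250 kb formed 29 clusters with 202 genes, and 191 genes stood outside. A 0 h peak named 14 of the 202 clustered genes, 6.93% (3.84 to 11.4%), against 41 of the 191 unclustered genes, 21.5% (15.9 to 27.97%). For promoter peaks alone the numbers were 10 clustered genes, 4.95% (2.40 to 8.92%), against 22 unclustered genes, 11.5% (7.36 to 16.9%). The intervals for any peak did not overlap, those for promoter peaks did, and other protein-coding genes, at 15.6%, stood between the groups.

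Gene length and sequence moved with this difference too. Clustered genes had a median length of 15.9 kb, against 20.6 kb outside. Among genes of 12.2 to 29.3 kb, 5 of 113 clustered genes had a peak, 4.42% (1.45 to 10.0%), against 13 of 84 unclustered genes, 15.5% (8.51 to 25.01%), so that the intervals overlap. Tandem zinc finger genes are copies of each other, and how reads that fit several places were treated was not given in the sources used here. The part of such reads in the low share was not tested.

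By the name in the row, no Zfp gene had a 0 h peak in 20 of the 29 clusters, which hold 138 genes. The largest cluster, Zfp712 to Zfp273 on chromosome 13 (chr13:67038594-67827000), has 23 genes, and only Zfp65 was named, by a peak 160 bp downstream of its start. Several large clusters had no point of any gene in their span. These were Zfp677 to Zfp946 on chromosome 17 with 18 genes, Zfp84 to Zfp146 on chromosome 7 with 15 genes, and Zfp992 to Zfp933 on chromosome 4 with 12 genes over 1400.1 kb. Zfp871 to Zfp414 on chromosome 17, with 13 genes, held 8 points, none of which named a Zfp gene, and Zfp180 to Zfp575 on chromosome 7, with 12 genes, held 2 of that kind.

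A few clusters carried peaks at several members. Zfp786 to Zfp746 on chromosome 6, 7 genes over 271.5 kb, had peaks at Zfp398, Zfp212 and Zfp746. Zfp553 to Zfp646 on chromosome 7, with 10 genes, had peaks at Zfp553, Zfp768 and Zfp764, each within 1 kb of a start. In the clusters of 5 or more genes, Zfp628 to Zfp580 (6 genes, peak at Zfp524) and Zfp868 to Zfp866 (5 genes, peak at Zfp868) were the others with a member named at 0 h. The remaining clusters of that size had no member named. On chromosome 7 they were Zfp607b to Zfp850, Zfp787 to Zfp28, Zfp936 to Zfp819 and Zfp329 to Zfp446. On chromosome 11 it was Zfp354c to Zfp354a, and on chromosome 9 Zfp560 to Zfp846 and Zfp653 to Zfp810. Inside Zfp809, in the span of Zfp653 to Zfp810, lay a 0 h point whose row gives another gene's ID and no name. KRAB genes made up most of the clustered members with a peak: 9 of the 13 KRAB members lay in clusters, against 5 of the 42 non-KRAB members. Domains were known only for genes named by a peak. The KRAB share of all clustered Zfp genes was therefore not counted, and these numbers do not set genes with a peak apart.

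**Figure D3:**
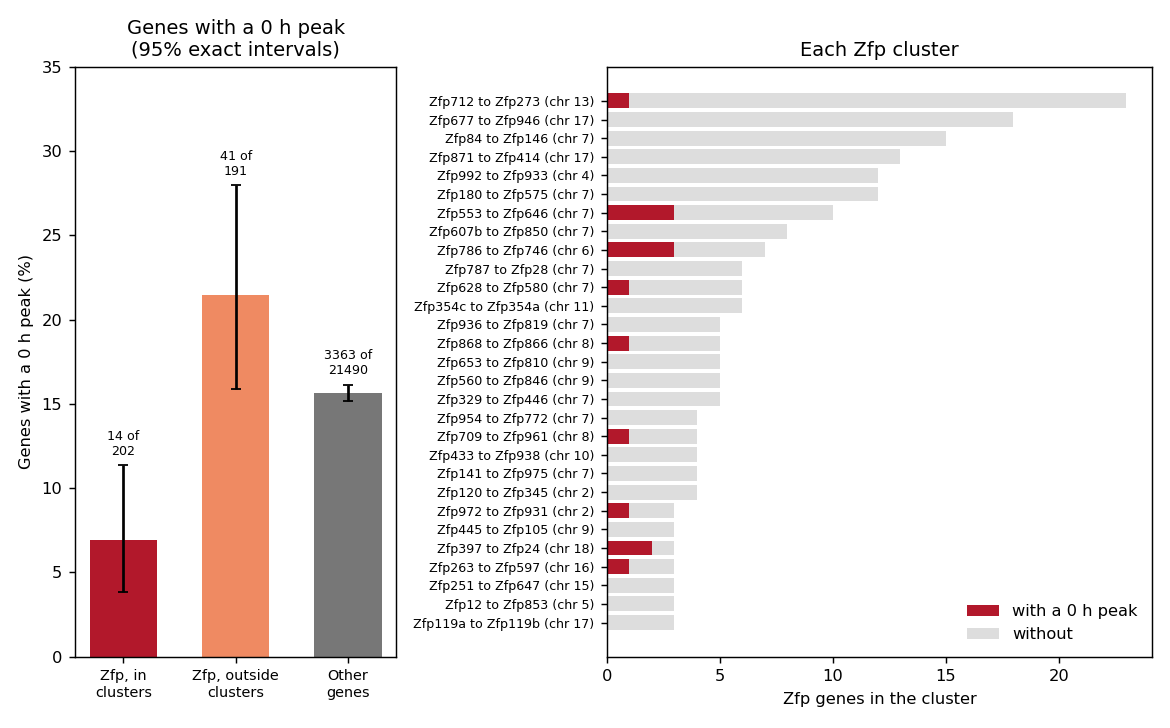
Left, percent of genes with a 0 h peak for Zfp genes in clusters (14 of 202), Zfp genes outside clusters (41 of 191) and other protein-coding genes (3363 of 21490), with exact 95% intervals. Right, number of Zfp genes in each of the 29 clusters, with those named by a 0 h peak in red; 20 clusters have none.

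Promoter sequence was then compared, which the choice of members by symbol does not use. RefSeq windows were matched by symbol for 328 Zfp genes, with 398 windows. A 0 h point lay within 500 bp of the start for 29 windows of 25 genes. These held a median of 27 CG dinucleotides (quartiles 20 and 34) and 66.3% G and C, against 13 and 54.3% in the 369 other Zfp windows. Over all genes of the table the medians were 25 with a point and 7 without, so CG-rich promoters carried the peaks in both.

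GGGCGG was present in 79.3% of the Zfp windows with a point, against 41.2% of those without. Over all genes it was in 70.1% of windows with a point and in 35.7% of all windows. The gapped pattern of GGG and CC stood in 82.8% of the Zfp windows with a point and 55.8% of those without. Over all genes it was in 70.1% of windows with a point and in 50.8% of all windows. The fixed letters of both patterns are G and C, whose content was also higher in windows with a point, and the part of this content was not tested. CCAAT, the box bound by NF-Y, stood in 31.0% of the Zfp windows with a point, against 48.8% of those without. Over all genes it was in 32.8% of windows with a point and 37.4% of all windows. TATAAA stood in 3.45% of the Zfp windows with a point, against 7.05% of those without. Over all genes it was in 5.58% of windows with a point and 13.6% of all windows. Further patterns were counted and are not all given here. CACGTG stood in 0% of the Zfp windows with a point, 6.50% of those without and 11.6% of all windows with a point. For TGACGTCA the shares were 10.3%, 3.25% and 3.27%. Only 29 Zfp windows had a point, no intervals were computed for these motif shares, and the differences were not tested. A match says only that the letters are there.

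Windows of clustered genes held a median of 11 CG dinucleotides, against 17 for unclustered genes. With at least 20 CG, 7 of 38 clustered windows had a point, 18.4% (7.74 to 34.3%), against 15 of 80 unclustered windows, 18.8% (10.9 to 29.0%), and 12.7% of all 8701 such windows. With fewer than 20 CG, the numbers were 2 of 157, 1.27% (0.155 to 4.53%), against 5 of 123, 4.07% (1.33 to 9.23%), and 1.89% of all. Within the lower class, 2 of 77 clustered and 2 of 62 unclustered windows with 0 to 9 CG had a point, and 0 of 80 clustered (upper bound 4.51%) and 3 of 61 unclustered windows with 10 to 19 CG did (4.92%, 1.03 to 13.7%). The intervals of clustered and unclustered windows overlap in every class, and CG content is not equal within a class. These classes were chosen after the data were seen.

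**Figure D4:**
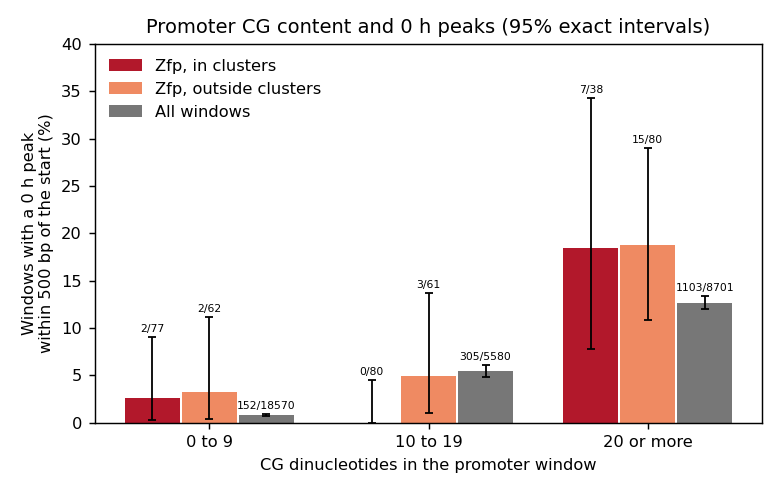
Percent of RefSeq promoter windows with a 0 h peak within 500 bp of the start, by number of CG dinucleotides in the window, for Zfp genes in clusters, Zfp genes outside clusters and all genes, with exact 95% intervals and counts above the bars. Windows with 20 or more CG had a peak in 18.4%, 18.8% and 12.7%.

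The fourth comparison set 4 h of LPS against 0 h for gene IDs below 27620. After 4 h, 37 peaks named a Zfp gene, against 10 in untreated cells, which makes a ratio of 3.70 (exact 95% interval 1.804 to 8.34), while all peaks of the range numbered 9045 after 4 h and 2225 before LPS, which makes 4.07 (3.88 to 4.26). As a share of peaks, Zfp genes held 0.409% (0.288 to 0.563%) at 4 h and 0.449% (0.216 to 0.825%) at 0 h. The ratio at Zfp genes thus differed from that over all genes by less than counting error. Promoter peaks at Zfp genes numbered 12 under LPS, against 4 without it, which makes a ratio of 3 (0.909 to 12.8) against 2.42 for all genes, and other peaks numbered 25 under LPS and 6 without it, which makes 4.17 (1.67 to 12.4) against 4.89.

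Of the 17 Zfp genes named in this range, 15 had a 4 h peak (91.9% of all named genes of the range did) and 6 a 0 h peak (38.7%). More peaks at 4 h than at 0 h were found at 14 of the 17 genes, 82.4%, with a background of 80.9%, and fewer at 2, with a background of 10.8%. A single gene, Zfp263, had 2 at both times (8.33%). By the name in the row, 11 genes had peaks at 4 h alone (61.3%), 4 at both times (30.5%) and 2 at 0 h alone (8.13%). None of these shares stood apart from its background beyond counting error. Genes without any peak carry no ID in the reference used here and are left out of these counts.

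Zfp148 (chr16:33380775-33503903), which encodes the GC-box-binding factor ZBP-89, was named by 7 peaks at 4 h and 0 at 0 h. Of these, 4 lay in intron 1 of 8, 1 in intron 2 and 2 between 1 and 3 kb from a start. The nearest 0 h point of any gene lay 2572 bp from a 4 h point of Zfp148, but its row gives another gene's ID and no name. That 0 h point lay upstream of the RefSeq start of Zfp148 and within 1 kb of it. The count of 0 at 0 h is thus by name alone. Without Zfp148 the Zfp ratio of 4 h over 0 h was 3.

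Zfp397 was named by 5 peaks after 4 h and by 4 before LPS. At 4 h 1 of them lay in its promoter, 268 bp upstream of the start, and 4 lay between 24663 and 67176 bp upstream. The farthest of these lay in an intron of another gene ID. All 4 peaks of 0 h were distal. Without Zfp397 the ratio was 5.33. The gene thus kept peaks at both times, and its nearest pair of 4 h and 0 h points was 668 bp apart.

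Zfp318, Zfp385c and Zfp91 were named by 3 peaks each after 4 h and by 0 before LPS. Zfp318, in B cells needed for IgD expression, had peaks in its promoter, in intron 2 of 9 and 23336 bp upstream. Zfp385c had a point on its start, another 574 bp upstream and another 1398 bp upstream of a second start. A 0 h point also lay inside Zfp385c but was given to another gene, Nkiras2. Zfp91, whose human protein ubiquitinates the NF-κB-inducing kinase NIK, had all its points within 1298 bp of the start. Zfp592, Zfp775 and Zfp715 had 2 each at 4 h and 0 at 0 h, with 1 of each pair in the promoter.

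Zfp207, whose product binds Bub3 at kinetochores, had 2 peaks at 4 h and 1 at 0 h, both times with a promoter peak but at different starts. Its 0 h point lay 42 bp upstream of the start that its row names and 4505 bp from the nearest 4 h point. Zfp521, a cofactor gene of blood progenitors, had 2 at 4 h and 1 at 0 h, all in introns 2 or 5 of 7. Zfp263 had both peaks at distal positions at 4 h, 5647 bp upstream and 7478 bp downstream, and both in the promoter class at 0 h. Zfp142, Zfp324, Zfp523 and Zfp871 had 1 peak each at 4 h and 0 at 0 h. The genes with a peak at 0 h alone were Zfp385a, a p53 cofactor gene, with a promoter peak, and Zfp106, an RNA-binding protein gene, with a peak in intron 2 of 21.

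**Figure D5:**
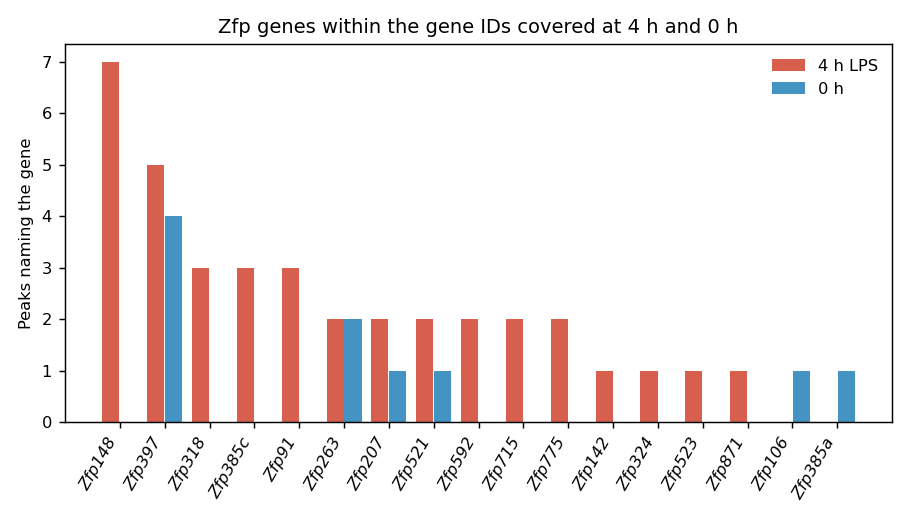
Number of peaks naming each of the 17 Zfp genes of the ID range covered at both times, at 4 h of LPS (red, left bar) and at 0 h (blue, right bar), 1 library each. Zfp148 had 7 and 0, Zfp397 5 and 4, and Zfp106 and Zfp385a had 0 and 1.

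Positions within the genes were compared as well. At 4 h 12 of the 37 Zfp peaks were promoter peaks, 32.4% (18.01 to 49.8%), against 19.9% of peaks at other genes and 19.9% of all. At 0 h in the same range it was 4 of 10, 40% (12.2 to 73.8%), with 33.5% over all genes. By gene, 10 of the 15 Zfp genes with a 4 h peak had one in the promoter, 66.7% (38.4 to 88.2%), against 44.8% of other genes and 44.9% of all, and at 0 h it was 3 of 6, with 50.1% over all. Each of these Zfp intervals includes the value over all genes. No 4 h peak of a Zfp gene lay within 500 bp of a 0 h peak, 0 of 37 (upper bound 9.49%), where 4.51% of all 4 h peaks did. Conversely 0 of 10 Zfp peaks at 0 h lay that close to a 4 h peak (upper bound 30.8%), where 18% of all did.

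The last comparison covered all 3 times, for IDs below 22416. Zfp genes were named by 2 of the 1312 peaks of untreated cells, 15 of the 5298 after 4 h of LPS and 2 of the 1152 after 10 h, which is 0.152%, 0.283% and 0.174%. Of 9 Zfp genes named, 2 had a peak at 0 h (37.6% of all named genes did), 7 at 4 h (87.3%) and 2 at 10 h (32.3%), and 0 had peaks at all 3 times (13.1%). The ratio of 4 h over 0 h was 7.50 (1.74 to 67.6), over 1.5 times that of the longer range, against 4.04 for all genes. The ratio of 10 h over 4 h was 0.133 (0.0148 to 0.573), against 0.217 for all genes. With so few peaks both intervals include the ratio of all genes.

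All 7 Zfp genes with a 4 h peak in this range had one in the promoter (100%, 59.0 to 100%), namely Zfp207, Zfp318, Zfp324, Zfp385c, Zfp592, Zfp715 and Zfp775, where 45.6% of other genes and 45.8% of all did. The interval lies above that value, but in the longer range, which includes these genes, the share was the 66.7% given above. At 0 h both genes with a peak had one in the promoter, with 51.7% over all genes, and at 10 h it was 1 of 2, with 33%. At 10 h the peaks were at Zfp775, 850 bp upstream of the start and 497 bp from a 4 h point of the same gene, and at Zfp655, a KRAB gene, in its 3′ UTR 12012 bp from the start. One of the 2 peaks of 10 h thus lay within 500 bp of a 4 h peak (20.3% of all 10 h peaks did), and 1 of the 15 peaks of 4 h lay that close to a 10 h peak (4.98%). Between 0 h and the other times no Zfp peak was shared: 0 of 2 peaks of 0 h lay near a 4 h peak (19.1% of all did) or a 10 h peak (7.39%), and near a 0 h peak lay 0 of 15 peaks of 4 h (4.85%) and 0 of 2 peaks of 10 h (7.99%).

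In the Zfp36 family, Zfp36l2 (chr17:84183924-84187947) was named by 2 peaks at 0 h, 2730 and 19697 bp downstream of its start. No row named Zfp36 itself, which encodes tristetraprolin, the decay factor of Tnf mRNA, and the nearest 0 h point of any gene was 420 kb away. Zfp36l1 was not named either, although a point whose row gives another gene's ID and no name lay 0.636 kb from it, and for Zfp36l3 the nearest point was 401 kb away. Whether the 4 h and 10 h tables reach the IDs of Zfp36, Zfp36l1 and Zfp36l3 was not determined.

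Partner genes were counted in the same way. Of 24 partners of the Zfp36 proteins in mRNA decay, 8 had a 0 h peak, 33.3% (15.6 to 55.3%), 5 of them in the promoter, among them the deadenylase genes Cnot6, Cnot6l and Cnot8 and the exonuclease gene Xrn1. In the range of IDs below 27620 these partners held 38 peaks in 8 genes at 4 h and 5 peaks in 4 genes at 0 h. Dcp2, the decapping enzyme gene, had 11 at 4 h and 0 at 0 h, Ywhaz had 9 and 2, Mapkapk2, the kinase that inactivates tristetraprolin, had 8 and 0, and Dcp1a had 4 and 1. Over all genes of that range the peaks at 4 h numbered 4.07 times those at 0 h, and 80.9% of named genes had more at 4 h. Whether the decay partners differ from this was not tested.

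Of 24 partners of KRAB proteins 5 had a 0 h peak, 20.8% (7.13 to 42.2%), with 6 peaks, at Trim33, Cbx3, Chaf1b, Mphosph8 and Zmym2. The central corepressor gene Trim28 and the histone methyltransferase gene Setdb1 were not named. In the ID range of 4 h they held 12 peaks in 6 genes at 4 h, among them Suv39h2 with 3 and Cbx5 with 2, and 2 peaks in 2 genes at 0 h, beside the same ratio of 4.07 over all genes. Of 13 subunits of the NuRD remodelling complex, which several zinc finger proteins recruit, 5 had a 0 h peak, with 2 at the helicase gene Chd3 and 1 each at Hdac2, Rbbp4, Mbd2 and Gatad2b. As a share this is 38.5% (13.9 to 68.4%). The intervals of the KRAB partners and of NuRD include the 15.6% of all protein-coding genes, and the lower bound of the mRNA-decay partners rounds to the same value.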

How the data were processed

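Chromatin from untreated and LPS-treated RAW 264.7 cells was immunoprecipitated with an antibody against hnRNP UL1, per the labels' protocols. The submitters' processing notes name CASAVA 1.8, BWA 0.7.12, MACS2 2.1.0 and the build GRCm38 (mm10), without roles or settings. The deposited tables give each listed peak, per the file headers, as a point with its annotated position, the nearest gene with ID, name and domain description, and the distance to its start. Those of 4 h and 10 h end at lower gene IDs, so peaks at genes beyond these ends are not known. They give neither scores nor depths, so depth is unknown and a stricter threshold was not run. The last row at 4 h was incomplete and was left out, as was the end gene of each range. No per-sample column was left unused.

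Peaks were counted by the gene name in the row. The 397 protein-coding Zfp genes, 4 of them Zfp36 family, their lengths, clusters and promoter windows come from RefSeq GRCm38.p6. Shares have exact 95% Clopper-Pearson intervals and ratios exact intervals conditional on the sum (Python 3.11.15, pandas 2.3.3, SciPy 1.17.1). The counting was tested on simulated data. The members, gene lists and tests were chosen with earlier results of these data known. Genes were named by most peaks at each time, peaks at a single time, promoter peaks at every covered time, clusters of at least 5 genes, the Zfp36 family and listed partners with a peak. Finger counts in proteins were planned and not run, since no protein table was at hand, and domains were read from the tables instead.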

Additional observations from a re-analysis of the deposited data

How the results depend on the processing

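Of 82 alternative values for 24 results, 71 stayed within the interval of the value reported and 11 did not. By gene instead of by peak, the 4 h promoter share of Zfp genes was 66.7% against 32.4% by peak (IDs below 27620) and 100% against 53.3% (IDs below 22416). Among promoter peaks alone, Zfp genes held 0.666% at 4 h against 0.409% of all peaks in the longer range, and 0.753% against 0.283% in the shorter one. Among Zfp genes of 12.2 to 29.3 kb, 9.14% had a 0 h peak against 13.99% of all Zfp genes, and for unclustered ones the share was 15.5% against 21.5%. Over all protein-coding genes the 0 h share was 15.6%, and it was 12.8% for peaks within 10 kb of the start and 19.3% for points in the gene or 5 kb to either side. The Zfp share moved with it, to 11.2% and 16.3%. With 500 bp as the promoter limit 0 of the 2 peaks of 10 h counted, against 50% reported. With sharing set to 200 bp, 0% of 10 h peaks lay near a 4 h peak against 50%, and 0% of 4 h peaks lay near a 10 h peak against 6.67%. The cause of these changes was not tested. The ratio of 4 h over 0 h stayed between 3 and 5.33 within the longer range and was 7.50 in the shorter one. Other cluster rules gave 7.14 to 7.69% for clustered and 19.4 to 25.5% for unclustered genes. The alternatives by gene length and CG content, the ratio without Zfp148 and the 0 h promoter share without Zfp397 (52.9%) or Zfp516 (51.5%) were chosen after seeing the data. No paired analysis was possible because there is 1 ChIP sample per time. A stricter peak threshold and a limit on finger number were not run. With 10 Zfp peaks at 0 h and 2 at 10 h in the compared ranges, only large differences between times could be seen.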

Other observations

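Other zinc finger families were counted in the same way, and differences between families were not tested. Of 7 Zfand genes, whose AN1 fingers bind ubiquitin or proteasome partners, 5 had a peak, 71.4% (29.0 to 96.3%), with 18 peaks in all, 9 of them at Zfand3 and 5 at Zfand5. Of 41 Zbtb genes, which join a BTB domain to C2H2 fingers, 6 had a peak, 14.6% (5.57 to 29.2%), and 6 of their 8 peaks lay within 1 kb of a start. Of 17 Klf genes 6 had a peak, 35.3% (14.2 to 61.7%), with 2 each at Klf13 and Klf14. None of 16 Zscan genes had one (upper bound 20.6%), and of 11 Zkscan genes only Zkscan6 did. All intervals are exact Clopper-Pearson ones, cover counting error, and treat genes as independent. The background over all protein-coding genes was 15.6%, which the intervals of Zbtb, Klf, Zscan and Zkscan include and that of Zfand does not. A 0 h peak was also found at 3 of 18 Zc3h, 2 of 8 Zfyve, 8 of 24 Zdhhc, 0 of 5 Zmat, 2 of 6 Zmym, 2 of 2 Zmiz, 2 of 13 Zcchc, 3 of 9 Sp, 0 of 4 Egr, 1 of 5 Ikzf and 0 of 6 Gata genes. Of these families, the lower bound of Zdhhc (15.6%) rounds to the background, and that of Zmiz (15.8%), with only 2 genes, lies above it.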
